A study of Mus musculus with 2 samples.

Results

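The genes of oxidative phosphorylation were described in tumour endothelial cells of mice, 1 library labelled control and 1 labelled as a knockout of Nf2, the gene of the cytoskeletal linker protein merlin. Members were all gene symbols that start with Nduf, Uqcr, Cox4, Cox5, Cox6, Cox7, Cox8, Atp5 or mt-, a rule on names alone, set with earlier results of these data known. This gave 99 of the 19831 genes in the tables. Nuclear DNA encodes 86 of them: 38 subunits named for complex I, 8 complex I assembly factors (Ndufaf symbols), 8 subunits of complex III, 15 of complex IV and 17 of complex V. The other 13 are encoded by mitochondrial DNA: 7 of complex I, 1 of complex III, 3 of complex IV and 2 of complex V.

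Oxidative phosphorylation is carried out by protein complexes of the inner mitochondrial membrane. Complex I takes electrons from NADH, complex III passes them from ubiquinol to cytochrome c, complex IV hands them to oxygen, and complex V uses the resulting proton gradient to make ATP. Subunits of all 4 come from both genomes: most are made in the cytosol and imported, while the core membrane subunits are translated inside the organelle from transcripts of a small circular DNA. Endothelial cells are known to draw much of their ATP from glycolysis, and their respiratory chain is known to serve proliferation through its supply of precursors.

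Both libraries came from adult C57BL/6 mice and held endothelial cells of tumours, sorted for the surface protein CD31. They differed in the Nf2 label, and both were made on droplets with 3′ chemistry of 10x Genomics (v3.1). The exons removed, the Cre driver, the tumour type and the number of animals are not stated in those labels. Each library holds cells of 2 runs, numbered in the cell barcodes; what a run is was not stated, so runs are shown as the spread within a library and not as replicates. With 1 library per condition no test was possible and no p-value is given. Brackets give exact 95% intervals of counting error alone and leave out the spread between animals. All differences between control and knockout are differences between these libraries.

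After filtering, 1580 cells of the control (27588786 UMIs) and 2884 of the knockout library (52852675 UMIs) remained. UMIs are molecules counted by their unique identifiers, and levels are given as CPM, the UMIs of a gene per 1000000 UMIs of the summed cells. The median retained cell had 11136 and 21182 UMIs in control runs 1 and 2, and 14606 and 17989 UMIs in knockout runs 1 and 2. The filter left out 863 control cells (35.3%) and 262 knockout cells (8.33%), in shallow clusters led by neutrophil genes and a cluster led by leukocyte genes. Endothelial markers summed to 8944 and 6850 CPM and neutrophil markers to 662 and 808 CPM in the cells left out. All 18 endothelial markers had UMIs, with a summed level of 10955 CPM in control cells and 8772 CPM in the knockout library. Pericyte markers summed to 168 and 33.0 CPM and neutrophil markers to 96.6 and 82.2 CPM. Nf2 itself was at 21.4 CPM in control cells and 20.2 CPM in the library labelled knockout, and 3′ reads outside a deleted part would not show a deletion. The libraries shared 1 cell barcode.

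Sequences are shown for some members named below, and no link between a sequence and a level was tested. Among the mitochondrial members, mt-Nd4l and mt-Nd4, both core subunits of complex I, are known to lie on 1 messenger RNA, and so are mt-Atp8 and mt-Atp6 of complex V. Their reading frames overlap on the forward strand of mitochondrial DNA (GRCm38, GENCODE vM21), by 7 bases for the first pair and by 43 bases for the other. The lines give the end of the upstream gene and the start of the downstream gene, with the shared bases in capitals, because reads from these stretches belong to both genes.
mt-Nd4l, chrM:10137-10173: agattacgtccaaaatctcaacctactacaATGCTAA
mt-Nd4, chrM:10167-10203: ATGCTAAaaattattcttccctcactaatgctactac
mt-Atp8, chrM:7897-7969: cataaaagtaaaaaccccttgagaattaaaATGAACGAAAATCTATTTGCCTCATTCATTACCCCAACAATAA
mt-Atp6, chrM:7927-7999: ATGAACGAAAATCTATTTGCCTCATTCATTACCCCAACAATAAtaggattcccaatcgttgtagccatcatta

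For the nuclear members, 69 of the 86 had a promoter window in the RefSeq table (GRCm38.p6), and the 250 bases before the transcription start were searched on both strands for 3 letter patterns. GCATGCGC, a core of sites for NRF1, a known activator of respiratory chain genes, was in 8 of 74 member windows (10.8%) and in 2.26% of all 32851 windows. CCGGAAG, a core of sites for ETS factors such as GABPA, was in 13 member windows (17.6%) and in 6.91% of all windows. ACGTG, the core that hypoxia-inducible factors bind, was in 13 member windows (17.6%) and in 16.6% of all windows. The windows of Ndufa4 and Ndufa6 are shown in part, since these members had the highest knockout to control ratios of the nuclear members that passed the level filter. GENCODE starts these genes 47 and 31 bases further upstream than RefSeq, so those bases of the windows lie within the GENCODE genes, and only the bases before both starts are printed. Both genes are on the reverse strand, and capitals mark the NRF1 core. The Ndufa6 window held that core once, and the Ndufa4 window held none of the 3 patterns.
Ndufa4, chr6:11907498-11907700: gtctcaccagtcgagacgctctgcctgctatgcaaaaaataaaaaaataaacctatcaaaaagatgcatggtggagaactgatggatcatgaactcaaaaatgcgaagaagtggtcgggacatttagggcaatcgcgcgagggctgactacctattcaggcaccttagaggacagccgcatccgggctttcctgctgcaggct
Ndufa6, chr15:82354323-82354541: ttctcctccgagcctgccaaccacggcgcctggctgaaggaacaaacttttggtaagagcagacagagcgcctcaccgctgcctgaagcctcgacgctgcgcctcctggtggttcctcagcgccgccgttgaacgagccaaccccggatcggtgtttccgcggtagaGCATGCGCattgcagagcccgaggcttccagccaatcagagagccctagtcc

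The nuclear-encoded members summed to a slightly higher level in the knockout library, and the sums of the mitochondrially encoded members were nearly equal. The 86 nuclear members summed to 17917 and 18998 CPM in control runs 1 and 2 and to 20015 and 20089 CPM in knockout runs 1 and 2. Both knockout runs lay above both control runs. Over the libraries this was 18485 against 20063 CPM, a ratio of 1.085 (1.082 to 1.089), or 0.12 on the log2 scale. The 4 pairs of a knockout with a control run gave log2 ratios from 0.08 to 0.17. The 13 mitochondrial members summed to 37643 and 33673 CPM in the control runs and to 38449 and 33810 CPM in the knockout runs. Here run 1 was the higher in each library, and the runs of the libraries overlapped. No deposited cell had more than 10% mitochondrial UMIs, which bounds this sum in every cell. The ratio over the libraries was 0.997 (0.995 to 0.999), with log2 ratios between -0.15 and 0.19 for the 4 run pairs. Run 2 over run 1 gave log2 values of -0.16 in control cells and -0.19 in the knockout library for the mitochondrial sum, against 0.08 and 0.01 for the nuclear sum. The mitochondrial over the nuclear sum had a log2 ratio of -0.12 between the libraries. This contrast was gone without control run 1 (-0.0045), without knockout run 2 (-0.0018) and as the mean over cells (0.0016), where the nuclear sum was at 0.051.

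Gene by gene, most members of both genomes had a ratio above 1. The level filter, a mean of at least 20 CPM over the libraries, was passed by 88 members, 75 nuclear and 13 mitochondrial, and by 5827 of all genes. The ratio was above 1 for 66 of the 75 nuclear members, for 10 of the 13 mitochondrial members and for 2582 of the 5827 genes. The 10 mitochondrial intervals lay above 1 and the other 3 below it, though 11 of the 13 had overlapping runs. Both knockout runs lay above both control runs in 51 nuclear members, against 27.2% of all tested genes, and below them in 4, against 37.7%. The median log2 ratio was 0.09 over nuclear members, 0.06 over mitochondrial members and -0.03 over all tested genes. Differences of this size were small for single genes: only Ndufa4 was at least 1.5-fold apart with an interval that excluded 1, where 8.08% of all tested genes were. A smaller threshold, at least 1.2-fold with separate runs, was passed upward by 6 members (Ndufa4, Ndufa6, Cox6c, Ndufa3, mt-Nd4l and mt-Nd5; 8.48% of all tested genes) and downward by 0 (16.4% of all tested genes).

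**Figure D1:**
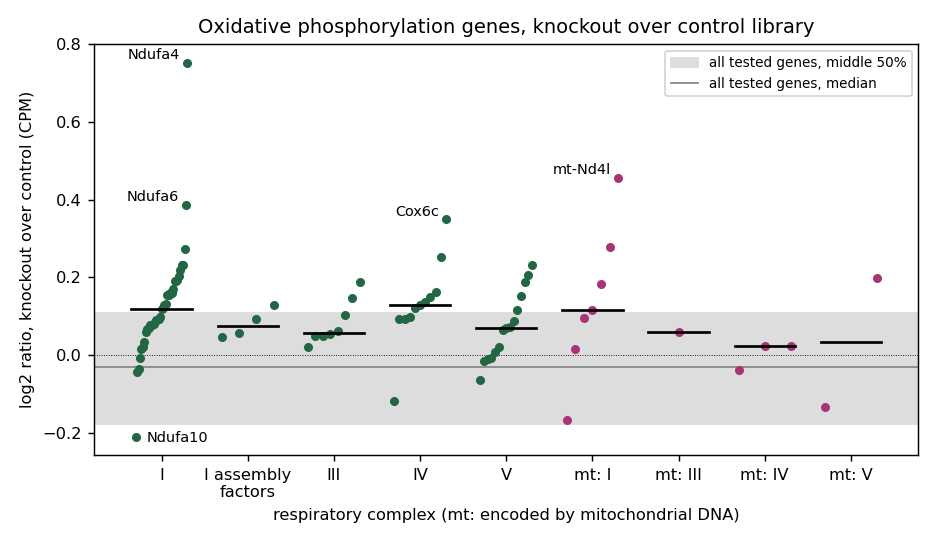
Each point is the log2 ratio of CPM, knockout over control, of 1 of the 88 members that passed the level filter, by complex and coding genome; short black lines are group medians, the grey band holds the middle 50% of all 5827 tested genes and the grey line their median (-0.03). Most nuclear points lie above 0, Ndufa4 is the highest at 0.75, and the mitochondrial points spread from -0.17 (mt-Nd6) to 0.46 (mt-Nd4l).

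By complex, the summed nuclear members of complex IV had the highest ratio, 4898 against 5442 CPM (1.111, 1.104 to 1.118), with runs at 4719 and 5059 against 5403 and 5463 CPM. Complex I was close to it, at 5696 against 6273 CPM (1.101, 1.095 to 1.108). That sum counts Ndufa4 by its symbol, though it is now known as a component of complex IV. Its ratio was the highest of the tested nuclear members. Counting it in complex IV would lower the complex I ratio and raise that of complex IV. Complex V reached 1.059 (1.053 to 1.066) and complex III 1.054 (1.044 to 1.065). In all 4 the knockout runs lay above the control runs. The assembly factors, which help build complex I and are not part of it, had a ratio of 1.049 (1.015 to 1.084), and their runs overlapped. The mitochondrial members of the same complexes did not follow this order. Their ratios were 1.079 for complex I, 1.041 for complex III, 1.004 for complex IV and 0.915 for complex V, and the runs overlapped in complexes III, IV and V. In complex I the mitochondrial sums were 5786 and 5229 CPM in control cells and 6464 and 5634 CPM in the knockout runs, which overlapped too.

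Within complex I, Ndufa4 (chr6:11900292-11907497, reverse strand) stood apart. It was named as a complex I subunit and is now known as a component of complex IV, and it is counted here by its symbol. Its level was 114 and 137 CPM in the control runs and 207 and 215 CPM in the knockout runs, and a UMI of it was found in 67.8% of control and 80.9% of knockout cells. The knockout runs were clear of the control runs, and the ratio was 1.69 (1.62 to 1.75). Without Ndufa4 the other 74 tested nuclear members had the same median log2 ratio to 2 decimals, 0.09.

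Ndufa6 (chr15:82350140-82354322), an accessory subunit of the matrix arm of complex I, was at 182 and 152 CPM in control cells and at 215 and 218 CPM in the knockout runs, a ratio of 1.31 (1.26 to 1.35). Its control runs differed from each other by nearly as much as the nearest control and knockout runs. Ndufa3, an accessory subunit of the membrane arm, had a ratio of 1.21 (1.16 to 1.25) and Ndufa7 of 1.18 (1.13 to 1.22), each with both knockout runs above the control runs. At the other end was Ndufa10, a kinase-related accessory subunit, at 134 and 134 CPM in control cells and 109 and 119 CPM in the knockout runs. Its ratio of 0.865 (0.830 to 0.901) was the lowest of the tested nuclear members. Ndufs4, a subunit of the NADH-oxidising part, and Ndufb5 of the membrane arm had ratios of 0.971 and 0.975, and both intervals held 1.

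In complex IV, Cox6c was at 546 and 634 CPM in control cells and 742 and 761 CPM in the knockout runs, a ratio of 1.27 (1.25 to 1.30). Cox7c followed at 1.19 (1.17 to 1.22), with 479 and 561 CPM against 624 and 621 CPM. Both are small structural subunits around the catalytic core. Cox7a2l, known for its part in joining complexes III and IV into supercomplexes, went the other way, at 345 and 326 CPM in control cells and 316 and 305 CPM in the knockout runs (0.922, 0.898 to 0.946). In complex V, Atp5o.1 and the central stalk subunit Atp5c1 were the lowest, at 0.957 and 0.990. The control and knockout runs of Atp5o.1 overlapped. The table lists Atp5o, the plain symbol of the stalk subunit OSCP, at 0 in every cell, and 2 annotated genes share that symbol, so Atp5o.1 is given without a position.

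Of the mitochondrial members, mt-Nd4l was the highest, at 201 and 248 CPM in control cells and 324 and 302 CPM in the knockout runs (1.37, 1.33 to 1.41). Its neighbour on the same messenger RNA, mt-Nd4, was at 1705 and 1556 CPM against 1830 and 1545 CPM, a ratio of 1.01 (1.0 to 1.02). The overlap pair of complex V also differed in ratio, 1.15 (1.11 to 1.19) for mt-Atp8 and 0.911 (0.906 to 0.915) for mt-Atp6. In both overlapping pairs the 2 genes thus had ratios whose intervals did not overlap. The 3′ chemistry reads near the end of a messenger RNA, which lies in the downstream gene of each pair. UMIs of mt-Nd4l and mt-Atp8 may therefore not give the level of a separate transcript, and their origin was not tested. The runs of mt-Atp8, mt-Atp6 and mt-Nd4 overlapped, and those of mt-Nd4l did not.

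mt-Nd5, whose gene starts downstream of mt-Nd4, was at 337 and 333 CPM in control cells and 450 and 382 CPM in the knockout runs, a ratio of 1.21 (1.18 to 1.24), and was the other mitochondrial member with separate runs. The remaining complex I members had ratios of 1.14 (mt-Nd3), 1.08 (mt-Nd1) and 1.07 (mt-Nd2), with overlapping runs. mt-Nd6, the single member on the other strand, had the lowest ratio, 0.890 (0.840 to 0.943), at 76.2 and 59.4 CPM against 66.2 and 56.5 CPM. mt-Cytb, the haem subunit of complex III, had a ratio of 1.04. The catalytic core of complex IV varied little, with 1.02 for mt-Co1, 0.974 for mt-Co2 and 1.02 for mt-Co3, and overlapping runs in each.

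**Figure D2:**
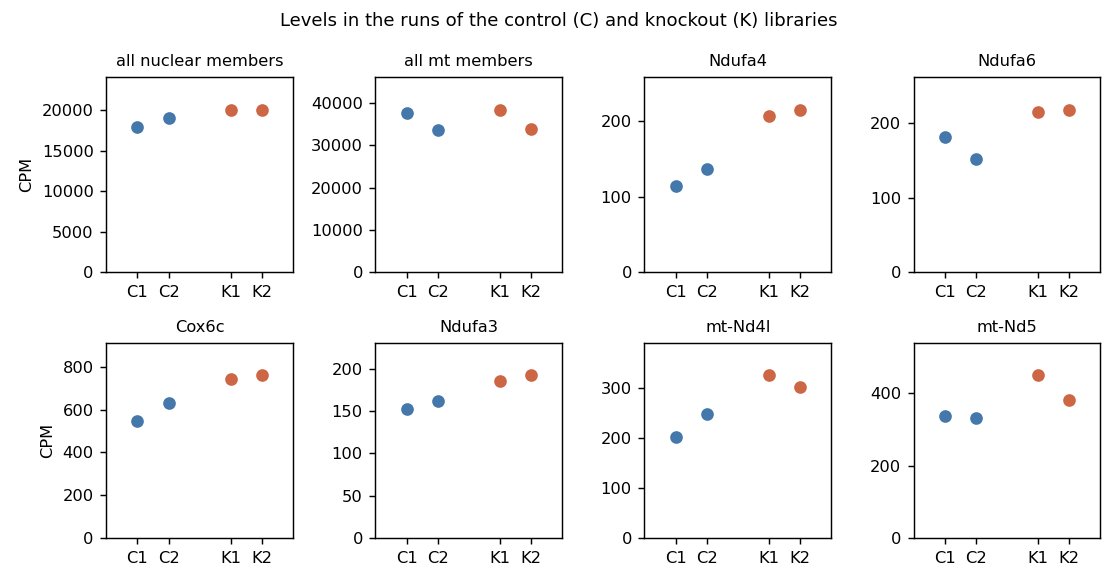
Points are levels in CPM for control runs 1 and 2 (C1, C2) and knockout runs 1 and 2 (K1, K2); the vertical axes start at 0 and differ between panels. The nuclear sum and the 6 members past the 1.2-fold rule have both knockout runs above both control runs, while the mitochondrial sum separates run 1 from run 2 in both libraries.

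The retained cells fell into 8 clusters, made without the members so that these could be read across them. Cluster 7 was hypoxic-like by its leading genes (Vegfa, Ero1l, Bnip3, Egln3, Slc2a1) and held 139 control and 288 knockout cells. Cluster 5 was mitotic-like (Cdc20, Cenpa, Ccnb2, Birc5; 265 and 208 cells, with a median of 5000 UMIs). Cluster 8 was led by replication histones and Top2a (150 and 262 cells), cluster 6 was interferon-like (Cxcl10, Rsad2, Ifit2; 163 and 286 cells) and cluster 4 venous-like (Ackr1, Selp, Sele; 78 and 483 cells), with Tagln, a smooth muscle gene, also among its leading genes. The other 3 clusters are called by their leading genes: cluster 1 (Cldn4, F2rl1; 15 and 875 cells), cluster 2 (Ramp3, Ednrb; 166 and 475 cells) and cluster 3 (Kcnj8, Piezo2; 604 and 7 cells). Clusters 1 and 3 are nearly all of 1 library and may be that library rather than a kind of cell; levels are given for them only in the library that fills them.

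As summed CPM, members were lowest in the hypoxic-like cluster, in both genomes and in both libraries. The nuclear sum there was 14718 CPM in control cells and 14271 CPM in knockout cells, against 18833 and 20647 CPM in the other retained cells, log2 differences of -0.36 and -0.53. The mitochondrial sum was 30162 and 28628 CPM against 36054 and 36137 CPM, log2 differences of -0.26 and -0.34. Each run gave the same direction, from -0.30 to -0.55 for the nuclear and from -0.24 to -0.35 for the mitochondrial sum. The median log2 difference over all tested genes in this cluster was -0.15 in each library, so that the values of the members lay below it.

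Of 76 tested nuclear members, 22 in control cells and 40 in the knockout library were at least 1.5-fold lower in the hypoxic-like cluster than in the other cells, where 20.8% and 23.8% of all tested genes were. All 22 of the control library were among the 40. They included 15 of the 38 complex I members in control cells and 23 in the knockout library, 2 and 3 of 8 in complex III, 1 and 3 of 11 tested in complex IV, 2 and 7 of 15 tested in complex V, and 2 and 4 of 4 tested assembly factors. As a sum, complex I was at 0.738 and 0.630 of the other cells, complex V at 0.767 and 0.680, complex IV at 0.827 and 0.752 and complex III at 0.851 and 0.766. Complex I was thus the lowest and complex III the highest in both libraries.

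Among the members lowest in that cluster were the assembly factors Ndufaf2 (0.425 and 0.381 of the other cells) and Ndufaf4 (0.408 and 0.437), which act in the building of complex I. Ndufb8, a membrane arm subunit, was at 0.660 and 0.486, and Uqcrc1, a core protein of complex III, at 0.659 and 0.485. Cox5a of complex IV was at 0.584 and 0.496, and Atp5g1, a source of the rotating c-ring of complex V, at 0.60 and 0.488. A few nuclear members were not lower. Ndufv3, a small subunit of the NADH-oxidising part, was at 1.69 (1.53 to 1.85) and 1.30 (1.21 to 1.40). Cox7a2l was at 1.12 and 1.14, Uqcrh, the hinge protein of complex III, at 1.05 and 1.08, and Ndufa6 at 0.989 and 1.08.

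The mitochondrial members did not move as 1 block in the hypoxic-like cluster. Of the 13, 6 were at least 1.5-fold lower in both libraries, all of complexes I and III: mt-Nd3 at 0.374 and 0.496 of the other cells, mt-Nd1 at 0.432 and 0.567, mt-Nd4l at 0.453 and 0.506, mt-Nd2 at 0.483 and 0.634, mt-Cytb at 0.494 and 0.482, and mt-Nd4 at 0.518 and 0.534. mt-Co1, the catalytic subunit of complex IV, was higher instead, at 7965 against 6368 CPM in the control (1.25, 1.23 to 1.27) and 7572 against 6511 CPM in the knockout library (1.16, 1.15 to 1.18). mt-Co2 was at 0.948 and 0.820, mt-Co3 at 0.894 and 0.803, mt-Atp6 at 0.768 and 0.745 and mt-Atp8 at 0.824 and 0.894. mt-Nd5 was at 0.738 and 0.705. mt-Nd6 was at 0.957, with an interval that held 1, and 1.22 (1.09 to 1.36).

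**Figure D3:**
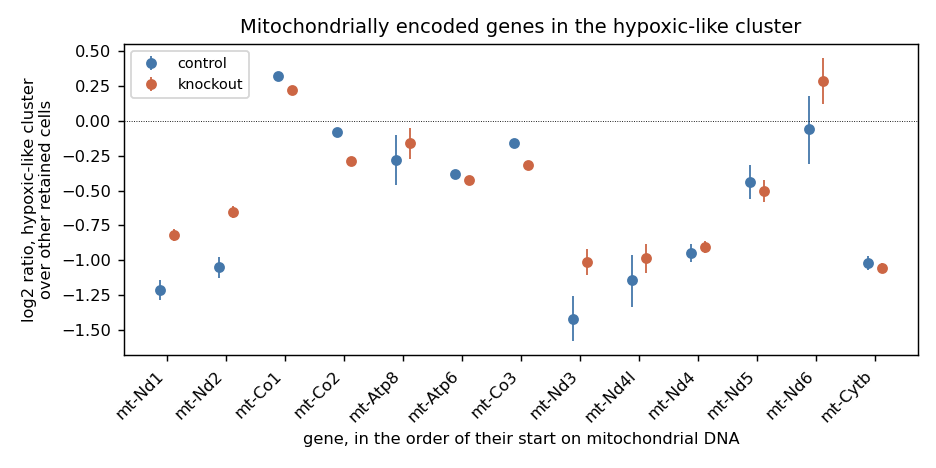
Points are log2 ratios of CPM in the hypoxic-like cluster over the other retained cells of the same library, with exact 95% intervals (counting error only), for the 13 mitochondrially encoded genes in the order of their start on mitochondrial DNA. mt-Co1 lies above 0 in both libraries, while mt-Nd1, mt-Nd2, mt-Nd3, mt-Nd4l, mt-Nd4 and mt-Cytb lie lowest.

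Ndufa4 and its paralog Ndufa4l2, which is known as a gene induced in hypoxia, went in opposite directions in that cluster. Ndufa4 was at 46.1 and 59.1 CPM in control cells and 52.8 and 59.2 CPM in the knockout runs there, 0.397 (0.329 to 0.476) and 0.252 (0.223 to 0.284) of the other cells of each library. Ndufa4l2 was at 46.1 and 30.4 CPM in control cells and 61.8 and 51.2 CPM in the knockout runs, 10.6-fold (7.81 to 14.3) and 9.92-fold (8.33 to 11.8) higher than in the other cells. Its share of the UMIs of the pair was 42.0% (35.3 to 48.9) in control cells and 48.5% (44.2 to 52.8) in the knockout library, against 4.92% and 4.46% over all retained cells. In the 7 other clusters the share was at most 7.49% (cluster 1, knockout).

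Among the 88 members past the level filter, Ndufa4 varied most across clusters, 6.55-fold between the lowest and highest of 7 clusters in control cells and 6.82-fold in the knockout library. The median tested member varied 1.60-fold and 1.85-fold. It was highest in the venous-like cluster, at 345 and 392 CPM, which was 2.94 and 2.08 times the level in the other cells. Ndufa4 was the sole nuclear member at least 1.5-fold higher in that cluster, where 13.4% and 8.95% of all tested genes were, and in cluster 2, where 4.44% and 3.05% were. It was also the sole nuclear member at least 1.5-fold lower in cluster 1 (knockout, 0.490 of the other cells) and cluster 3 (control, 0.662). The same held in the interferon-like cluster of the knockout library (0.663). In this order, 357 of 5749, 330 of 5854 and 157 of 5674 tested genes were lower there. Ndufaf2 varied next, 4.40-fold and 4.42-fold, with its highest level in cluster 8.

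**Figure D4:**
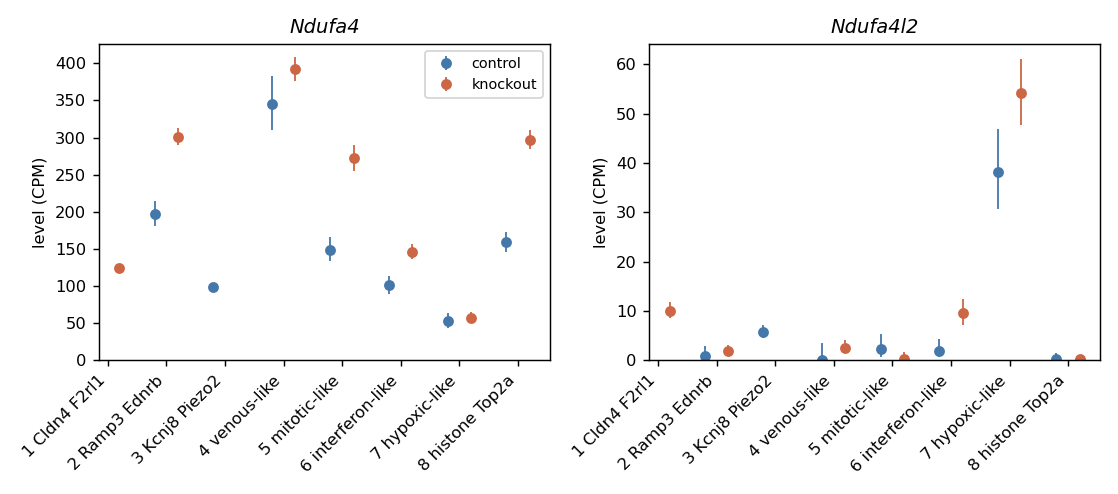
Points are levels of Ndufa4 and Ndufa4l2 in CPM by cluster and library, with exact 95% Poisson intervals (counting error only). Ndufa4 is highest in the venous-like cluster and lowest in the hypoxic-like cluster, where Ndufa4l2 has its highest level in both libraries.

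The difference of Ndufa4 between the libraries varied over the 6 clusters with cells of both. It was widest in cluster 8, 159 against 297 CPM (1.87, 1.71 to 2.06), and in the mitotic-like cluster, 149 against 272 CPM (1.82, 1.61 to 2.08). Cluster 2 had 1.53 (1.39 to 1.68) and the interferon-like cluster 1.45 (1.26 to 1.66), and in these 4 clusters the knockout runs lay above the control runs. In the venous-like cluster, where the level was highest, the ratio was 1.14 (1.02 to 1.27), with knockout runs at 401 and 389 CPM above control runs at 289 and 368 CPM. In the hypoxic-like cluster, where it was lowest, the ratio was 1.09 (0.878 to 1.36) and the runs overlapped. The differences between clusters in this ratio were not tested. Cluster 1, with 875 of the 2884 knockout cells, has too few control cells for such a ratio. Ndufa4 was at 124 CPM there, 0.490 (0.467 to 0.514) of the other knockout cells. That level lay between those of the control runs over all retained cells. Within clusters 2, 5 and 8, Ndufa4 was the sole nuclear member at least 1.5-fold higher, where 2.73%, 3.19% and 2.60% of all tested genes were.

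The nuclear sum was higher in the knockout library in 5 of the 6 shared clusters: 1.13 in cluster 2, 1.12 in the venous-like and in the mitotic-like cluster, and 1.09 in the interferon-like cluster and in cluster 8, with every run pair above 0 on the log2 scale. In the hypoxic-like cluster the ratio was 0.970 (0.957 to 0.982), and run pairs went from -0.16 to 0.07 on the log2 scale. The mitochondrial sum had ratios between 0.940 and 1.04 in the 6 clusters, with run pairs on both sides of 0 in each. mt-Nd4l was the sole mitochondrial member at least 1.5-fold higher within a cluster, in the hypoxic-like cluster (1.53, 1.33 to 1.77) and in cluster 8 (1.51, 1.39 to 1.63), where 4.19% and 2.60% of all tested genes were.

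**Figure D5:**
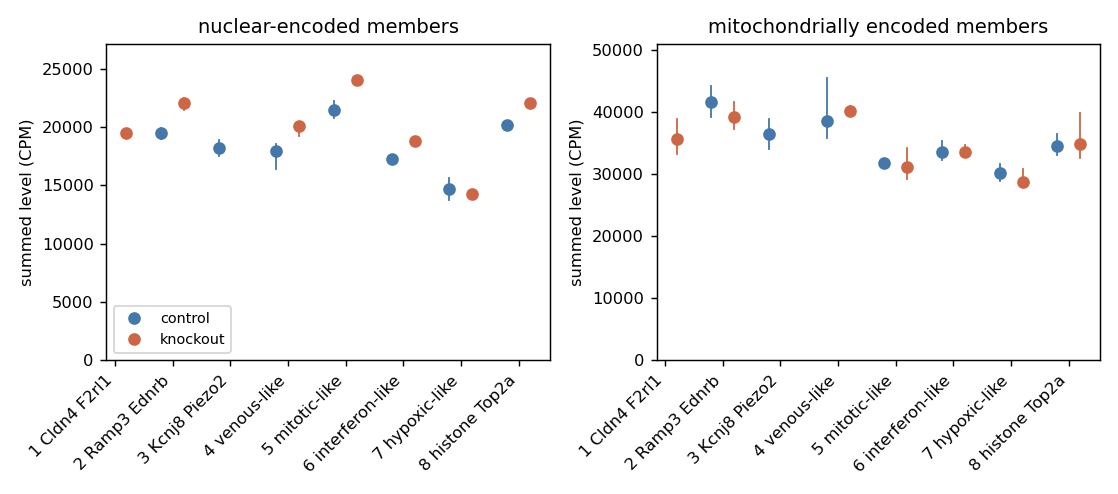
Points are the summed levels of the nuclear-encoded (left) and mitochondrially encoded (right) members in CPM by cluster and library, and lines join the values of runs 1 and 2. The nuclear sum is lowest in the hypoxic-like and highest in the mitotic-like cluster, and the mitochondrial sum is highest in cluster 2 (control) and cluster 4 (knockout).

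The mitotic-like cells had a higher nuclear and a lower mitochondrial sum than the other cells. In the mitotic-like cluster the nuclear sum was 21477 CPM in control cells and 24036 CPM in the knockout library, log2 differences of 0.24 and 0.28 from the other cells, while the mitochondrial sum was 31757 and 31092 CPM, differences of -0.18 and -0.20. Both runs of each library had these directions. Neutrophil markers summed to 459 CPM in the control cells of this cluster and 80.6 CPM in its knockout cells, and erythroid markers, with Hbb-bs among its 50 leading genes, to 154 CPM over both libraries; their part in these values was not tested. The ratio of the mitochondrial to the nuclear sum was 1.48 and 1.29 there, against 2.05 and 2.01 in the hypoxic-like cluster. Of 75 tested nuclear members, 69 in control cells and 71 in the knockout library had a higher level than the other cells. The median log2 difference was 0.27 and 0.31 over these 75 members, and 0.03 and 0.05 over all tested genes in this cluster. Yet 2 and 3 members passed 1.5-fold, where 6.05% and 7.64% of all tested genes were higher by the same rule. Ndufa5, an accessory subunit of complex I, passed in both, at 1.51 (1.36 to 1.69) and 1.58 (1.46 to 1.71). Cluster 8 had nuclear log2 differences of 0.15 and 0.16 and mitochondrial ones of -0.05 and -0.03, with the knockout runs on both sides of 0 (0.058 and -0.065) for the latter. Ndufaf2 was at 2.30 (2.0 to 2.65) and 2.03 (1.83 to 2.25) times the other cells in cluster 8, where 12.4% and 13.3% of all tested genes were at least 1.5-fold higher. Cox7a2l was at 0.757 and 0.689 and Ndufa6 at 0.894 and 0.723 in the same cells, below the level elsewhere while most members were above it.

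In cluster 2 both sums were higher than in the other cells, by 0.08 and 0.16 on the log2 scale for the nuclear and 0.25 and 0.17 for the mitochondrial members. The venous-like cluster had a higher mitochondrial sum (0.12 and 0.20) beside a nuclear sum near that of the other cells (-0.04 and 0.01). In the control library these became 0.24 (mitochondrial) and -0.14 (nuclear) with thinned cells, and 0.051 (mitochondrial) with members among the clustering genes; in the knockout library the mitochondrial value was 0.11 with thinned cells. Macrophage markers summed to 197 and 269 CPM and neutrophil markers to 273 and 219 CPM in this cluster, and their part was not tested. The interferon-like cluster was lower in both, by 0.09 to 0.11 on the log2 scale, near the median of all tested genes there (-0.11 and -0.08). At a clustering resolution of 0.5 no retained cluster had more than 1 interferon marker among its 50 leading genes. The cluster taken there (290 control and 676 knockout cells) had Cxcl10, and also Ramp3 and Ednrb, which lead cluster 2. Its mitochondrial sum was at 0.11 and 0.12 and its nuclear sum in the knockout library at 0.10. These values are thus not of interferon-like cells alone.

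Isoform families are given as shares of RNA UMIs. These are not levels per length and do not show which copy is built into a complex. Cox4i2, the hypoxia-linked isoform of the largest nuclear subunit of complex IV, held 0.132% of Cox4 UMIs in control cells and 0.131% in the knockout library. In the hypoxic-like cluster it had 7 and 19 UMIs, 3.44 (1.24 to 8.35) and 4.60 (2.52 to 8.10) times the level in the other cells. Cox6a2 had 1 UMI in all, and Cox7a1 held 0.257% and 0.163% of Cox7a UMIs; both are known as muscle isoforms. Cox8a was the sole Cox8 gene in the tables.

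Cox6b2, known as a testis isoform of a complex IV subunit, had 11 UMIs in control cells and 145 in the knockout library, 0.0952% (0.0476 to 0.170) and 0.596% (0.503 to 0.701) of Cox6b UMIs. Its level was 0.229 and 0.551 CPM in control cells and 2.41 and 2.93 CPM in the knockout runs, far under the level filter. The venous-like cluster held 98 of the 145 knockout UMIs (67.6%) and 5 of the 11 control UMIs. Within that cluster it was at 4.81 CPM in control cells and 15.9 CPM in the knockout library, a ratio of 3.30 (1.37 to 10.4), where the venous-like cluster made up 78 control and 483 knockout cells.

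Cox7a2 and Cox7a2l shared most Cox7a UMIs, and the share of Cox7a2 was 49.4% and 52.7% in control cells and 54.3% and 56.2% in the knockout runs. The 3 genes that encode the same c-ring protein of complex V kept their order: Atp5g2 held 47.9% and 50.4% of their UMIs in control cells and knockout library, Atp5g1 30.6% and 30.1%, and Atp5g3 21.5% and 19.5%.

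The level filter kept out 11 members. Besides Atp5o at 0 these were Cox6a2, Cox7a1, Cox4i2, Cox6b2, Ndufa4l2, Atp5s and the assembly factors Ndufaf1, Ndufaf5, Ndufaf6 and Ndufaf7. Ndufa4l2 was at 6.52 CPM in control cells and 9.91 CPM in the knockout library (1.52, 1.28 to 1.81). The 4 assembly factors had ratios from 0.892 (Ndufaf5) to 1.06 (Ndufaf6), and all 4 intervals held 1.

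Other genes of the mitochondrion and of energy supply were counted by the rule of 1.2-fold with separate runs, which 8.48% of all tested genes passed upward and 16.4% downward. The shares of the mitochondrial ribosome, the TCA cycle and complex II lay below these in both directions, and the shortest lists rest on 1 or 2 genes. None of the 6 genes of complex II and the mobile carrier cytochrome c passed. Among assembly factors outside the member list 2 of 14 tested were higher, Surf1 (1.23) and Sco2 (1.23), both of complex IV assembly. The mitochondrial ribosome had 4 of 72 higher and 0 lower, with Mrpl33 at 1.31, and the genes of protein import and the inner membrane had 3 of 25 higher and 0 lower. Both lists had a median log2 ratio of 0.09, like the nuclear members, against -0.03 over all tested genes. The ratio was above 1 for 56 of the 72 and 18 of the 25 genes. Both knockout runs lay above both control runs in 33 and 14 of them, against 27.2% of all tested genes. The median was 0.01 for the TCA cycle and for complex II with the carriers. Of 5 tested genes of mitochondrial gene expression 1 was lower, Polg, the polymerase of mitochondrial DNA (0.775), and 0 were higher. Of 15 genes of the TCA cycle 0 passed in either direction. The regulators had 1 of 5 tested higher, Myc, a growth-linked transcription factor, at 33.3 and 33.0 CPM in control cells and 52.6 and 51.2 CPM in the knockout runs (1.56, 1.45 to 1.68).

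Glycolysis, the other route to ATP, had 1 of 14 tested genes higher (Tpi1, 1.2) and 3 lower, the glucose transporter Slc2a1 (0.737), the hexokinase Hk1 (0.803) and the phosphofructokinase Pfkp (0.712). Of 15 tested genes of the hypoxia response outside the members, 2 were higher (Adm, 1.25, and Ankrd37, 1.27) and 6 lower, among them Egln3 (0.805) and Slc2a1. The median log2 ratio over the hypoxia list was -0.22, and over the glycolysis list 0.05. The hypoxia markers that define the hypoxic-like cluster summed to 1746 CPM in control cells and 1837 CPM in the knockout library over all retained cells. Mitotic markers summed to 664 and 567 CPM and S phase markers to 387 and 386 CPM. Without the cycling clusters, an alternative chosen after seeing the data, the nuclear sum had a log2 ratio of 0.12. The part of cycling cells in the nuclear difference was not tested.

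Cell by cell, with each cell thinned to 2000 UMIs so that depth was equal, the median cell had 37 nuclear member UMIs in the control (1429 cells) and 39 in the knockout library (2841 cells), and 67 mitochondrial member UMIs in both. Without thinning the medians were 271 and 321 nuclear and 537 and 570 mitochondrial UMIs. Cells below 2000 UMIs, 151 of the control and 43 of the knockout library, were left out here. The middle 50% of cells spanned 30 to 43 and 31 to 47 nuclear UMIs, and 51 to 94 and 49 to 97 mitochondrial UMIs. The hypoxic-like cluster had the lowest nuclear median, 28 in both libraries, and the lowest mitochondrial median in the knockout library (49). In control cells its mitochondrial median was not the lowest. It was 63, against 61 in the mitotic-like cluster, 62 in the interferon-like cluster and 63 in cluster 8. Across cells within a library the nuclear and mitochondrial counts had Pearson correlations of -0.14 (1429 control cells) and -0.29 (2841 knockout cells); both counts are parts of the same 2000 UMIs of a cell, and cells are not replicates.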

How the data were processed

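Per the labels' protocols, sorted cells were run on the 10x Genomics droplet system with 3′ chemistry. Cell Ranger 3.0.0, the mm10 genome build and Seurat 3.1.1 are named, without settings, per the submitters' processing notes. The authors deposited natural log values, 1 table per library: UMI counts of a cell divided by its total, multiplied by 10000, with 1 added before the logarithm. Counts had been assumed, and whole UMI counts were recovered from these values; 100% came out whole within 0.01 UMI.

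Cells with at least 500 genes and 1000 UMIs, and no more than 10% of them mitochondrial, were kept, and the 5% with the highest doublet score in each library were removed. Cells were clustered on 30 principal components of 2000 variable genes, members excluded, by the Leiden method (leidenalg 0.10.2, 15 neighbours, resolution 0.8). Clusters were left out where their median depth was under 0.333 of that of their samples and none of the 10 leading genes was an endothelial marker, or where at least 2 more markers of another type than of endothelium led; a list of general leukocyte genes was added to the latter rule after the clusters were seen. Counts were summed per library, run or cluster and expressed as CPM. Intervals are exact Poisson, conditional binomial (ratios) and Clopper-Pearson (shares) at 95%. A gene was called higher or lower where its mean CPM was at least 20, its ratio at least 1.5 and its interval excluded 1; a second rule asked for 1.2-fold and separate runs. The 1.5-fold rule and the ratio intervals were tested on simulated counts with counting error alone, and thinning was checked for equal totals. The filters, the clusters and the rule of 1.2-fold with separate runs were not tested in this way.

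Members and gene lists were chosen with earlier results of these data known. Named genes are all mt- members, those past 1.5-fold, the 6 highest and 6 lowest tested nuclear members and the isoform families; members named within a cluster were chosen after their values were seen. Positions are from GENCODE vM21, which matched 97 of the 99 symbols to 1 gene. How the authors counted reads shared by overlapping or near-identical genes is not stated.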

Additional observations from a re-analysis of the deposited data

How the results depend on the processing

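The nuclear sum was higher in the knockout library under each of the 15 alternatives, with log2 ratios from 0.051 to 0.16; the mitochondrial sum took both signs, from -0.087 to 0.11. Values are log2 ratios, knockout over control, for the nuclear sum, the mitochondrial sum and the mitochondrial over the nuclear sum, in this order. They were 0.11, -0.0086 and -0.11 with the shallow clusters kept, 0.14, -0.052 and -0.19 with at most 5% mitochondrial UMIs, and 0.079, 0.074 and -0.0045 without control run 1. They were 0.16, -0.087 and -0.25 without control run 2, 0.051, 0.052 and 0.0016 as the mean over cells, 0.13, -0.023 and -0.16 with the same cluster weights in both libraries, and 0.059, 0.033 and -0.027 with cells thinned to 2000 UMIs. Median-ratio scaling gave 0.15 and 0.027 for the nuclear and the mitochondrial sum. For the mitochondrial sum and its ratio to the nuclear sum, the values were 0.0092 and -0.11 with doublets kept, -0.073 and -0.19 without knockout run 1, 0.11 and -0.0018 without knockout run 2, and 0.023 and -0.099 without the clusters of mostly 1 library. Without the cycling clusters the mitochondrial sum was at -0.0086. These last 2 alternatives were chosen after seeing the data. Members at least 1.5-fold apart numbered 2 without control run 2 (Ndufa4 and mt-Nd4l) and 2 with a mean CPM of at least 5 (Ndufa4 and Ndufa4l2), against 1; Ndufa4 passed in every alternative run. Members past 1.2-fold with separate runs, in either direction, numbered 17 without control run 2, where 1 run stands for the control, against 6. They numbered between 5 and 9 in the other alternatives. Lower members among them were 1 without control run 2, 1 without knockout run 2 (Ndufa10) and 2 with thinned cells (Ndufa10 and Ndufs4). Ndufa4 and mt-Nd4l passed in every alternative run, while Ndufa6, Cox6c, Ndufa3 and mt-Nd5 did not pass in all of them. The causes were not tested.

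For the hypoxic-like cluster the log2 difference from the other cells kept its sign throughout. For control and knockout it became -0.39 and -0.56 (nuclear) and -0.18 and -0.29 (mitochondrial) with thinned cells, -0.27 and -0.33 (mitochondrial) with members among the clustering genes, and -0.55 (nuclear, knockout) at resolution 0.5. For the mitotic-like cluster it became 0.30 and 0.39 (nuclear) and -0.13 and -0.38 (mitochondrial) with thinned cells, and -0.18 (mitochondrial, knockout) at resolution 0.5. At resolution 0.5 no retained cluster stood out by interferon markers. The cluster with Cxcl10, Ramp3 and Ednrb among its leading genes was at 0.11 (mitochondrial, control), 0.12 (mitochondrial, knockout) and 0.10 (nuclear, knockout).

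Of the 25 genes followed singly over 13 alternatives, 13 kept their sign in every one, among them Ndufa4, Ndufa6, Cox6c, Ndufa3, mt-Nd4l and mt-Nd5. No paired analysis was possible because each condition has 1 library. Depth limits the members under the level filter, such as Cox4i2 and Cox6b2, whose values rest on few UMIs.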
